A study of Mus musculus with 54 samples.

Results

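Adipokines are proteins that fat cells secrete into the blood, and the measurements here concern 6 of their genes: Adipoq (adiponectin), Cfd (adipsin, complement factor D), Retn (resistin), Retnla (resistin-like alpha), Lep (leptin) and Rbp4 (retinol binding protein 4). Genes were found through the array's own annotation, as every probe whose gene symbol was one of these names. This gave 5 probes, 1 each for 5 of the 6 genes, among 16637 genes with a named probe. No probe carried the symbol Retn, so resistin itself was not analysed here and the resistin family was followed through Retnla. The cells were mouse 3T3-L1, an established fibroblast-like line from ATCC that differentiates into fat cells, followed over 18 times between 0 and 288 h. One arm differentiated normally and received no treatment, another received 0.5% DMSO (the vehicle) and the third received 2 µM prieurianin, a limonoid from plants. Each arm and time was measured on 1 single-colour oligonucleotide array, 54 in all. The labels do not say whether each time was a separate culture, or when the treated arms received the differentiation stimulus.

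Adiponectin circulates as trimers and larger multimers that are put together in the endoplasmic reticulum, and it signals through the receptors Adipor1 and Adipor2 and binds T-cadherin (Cdh13). Adipsin is the serine protease that cleaves factor B (Cfb) once it is bound to C3 and so starts the alternative complement pathway, and it is among the strongest markers of mature 3T3-L1 fat cells. Leptin signals energy stores to the brain, Rbp4 carries retinol in blood, and Retnla is a small cysteine-rich secreted protein found in fat tissue, in the airways and in macrophages.

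The deposited values are probe intensities, with array medians from 88 to 313, the highest being that of untreated cells at 1 h. A probe within 50 units of its array's highest value was taken as saturated, which applied to between 93 and 176 probes. Levels were quantile normalised and given as log2(intensity + 16), and all differences are on that scale, which understates changes of dim genes. Arms were compared at matched times with limma in 3 windows. The early window held the 5 times from 0.25 to 3 h, the middle one the 7 times from 5 to 48 h and the late one the 5 times from 96 to 288 h. The times of a window stand in for replicates, so a p-value here reflects variation from time to time, not from culture to culture. Between arms, the variation of arm differences was pooled over all 3 windows and all arms, so it is not that of 1 window. For rises over the course it was the variation of levels within windows, pooled in the same way. Errors after ± are standard errors unless SD is named, and adjusted p-values are Benjamini-Hochberg values over 12792 genes with a threshold of 0.05. Adipoq, Cfd and Retnla entered these tests. Lep and Rbp4 were too dim to pass the filter. One array stood apart in its levels of fat cell RNA, that of prieurianin cells at 192 h. Across genes its correlation was 0.971 with untreated and 0.969 with DMSO cells at 144 h, 0.960 and 0.952 with the same arms at 192 h, and 0.955 and 0.925 with its own arm at 144 h and 240 h. Results that rest on it are given with and without it.

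The RefSeq windows from 250 bases before to 50 bases after the gene start (assembly GRCm38.p6) are shown for the 3 genes that changed, because Adipoq and Cfd followed almost the same course while Retnla did not. Capitals mark matches to 7 short motifs that were searched on both strands.
Adipoq, chr16:23146286-23146585, plus strand: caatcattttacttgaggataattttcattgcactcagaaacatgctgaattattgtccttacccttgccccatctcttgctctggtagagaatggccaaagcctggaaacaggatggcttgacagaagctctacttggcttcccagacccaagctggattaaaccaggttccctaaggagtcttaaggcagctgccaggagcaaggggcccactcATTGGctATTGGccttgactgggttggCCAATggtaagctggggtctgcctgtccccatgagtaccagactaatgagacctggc
Cfd, chr10:79890603-79890902, plus strand: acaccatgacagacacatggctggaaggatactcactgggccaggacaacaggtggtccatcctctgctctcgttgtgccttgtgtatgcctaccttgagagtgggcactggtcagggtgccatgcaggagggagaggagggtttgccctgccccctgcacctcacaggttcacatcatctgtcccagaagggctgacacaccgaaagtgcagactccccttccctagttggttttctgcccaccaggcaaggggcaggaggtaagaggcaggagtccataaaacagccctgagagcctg
Retnla, chr16:48842359-48842658, plus strand: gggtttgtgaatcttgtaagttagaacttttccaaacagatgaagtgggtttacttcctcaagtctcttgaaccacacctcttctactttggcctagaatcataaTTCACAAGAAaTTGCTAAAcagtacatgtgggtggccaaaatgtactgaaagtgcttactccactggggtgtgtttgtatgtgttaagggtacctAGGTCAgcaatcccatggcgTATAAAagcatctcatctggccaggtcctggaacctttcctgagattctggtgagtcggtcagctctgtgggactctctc
In the Adipoq window the capitals are 3 CCAAT boxes, which begin 34, 27 and 7 bases before the gene start; the first 2 lie on the minus strand. In the Retnla window they are a STAT pair (TTC and GAA with 4 bases between) at -145, a C/EBP-type site (TTGCNNAA) at -134, a nuclear receptor core site (AGGTCA) at -50 and a TATA box (TATAAA) at -30. The Cfd window held none of the 7. Of 32851 promoter windows of this length, 37.4% held CCAAT, 10.8% TTGCNNAA, 16.3% AGGTCA, 13.6% TATAAA and 6.95% the STAT pair. The C/EBP palindrome TTGCGCAA, held by 0.183% of windows and overlapping TTGCNNAA, was in none of these 3. Neither was the DR1 element (0.04%), a tandem of AGGTCA with 1 base between. These matches describe letters only.

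Adipoq and Cfd read at or near background for the first day in every arm and then rose steeply in the untreated and DMSO cells. From 0 to 24 h the Adipoq probe read 10 to 67 in untreated cells (median 39), 25 to 61 in DMSO cells (median 44) and 35 to 60 in prieurianin cells (median 43), so the arms overlapped throughout. In untreated cells it then read 362 and 1523 at 36 h and 48 h, and over the 5 late times (96, 144, 192, 240, 288 h) 20520, 40324, 60669, 65489 and 65487. The DMSO course was close to this at every late time, with 158, 1179, 17789, 40939, 49605, 65480 and 65483. The last 2 values of both controls were saturated, so a further rise there could not have been measured.

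Prieurianin cells followed the same upward path later and lower, and then lost adiponectin RNA. Over the same times their Adipoq probe read 41, 505, 7818, 8838, 51575, 1447 and 1655. The first time at which the level stood at least 1 log2 unit above every 0 to 3 h value of its arm, with the next time also above, was 36 h in both controls and 48 h with prieurianin. At 48 h and 96 h prieurianin cells held 48.7% and 48.1% of the normalised DMSO level (with the pseudocount). The share went to 23.0% at 144 h, then 98.1% (192 h), 2.42% (240 h) and 3.02% (288 h). Against the saturated DMSO probes the last pair of times is therefore at least 41.4-fold and at least 33.1-fold lower. At 192 h the deposited prieurianin value lay above the DMSO value and the normalised one just below it, and at the other 4 late times prieurianin lay below DMSO on both scales.

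**Figure D1:**
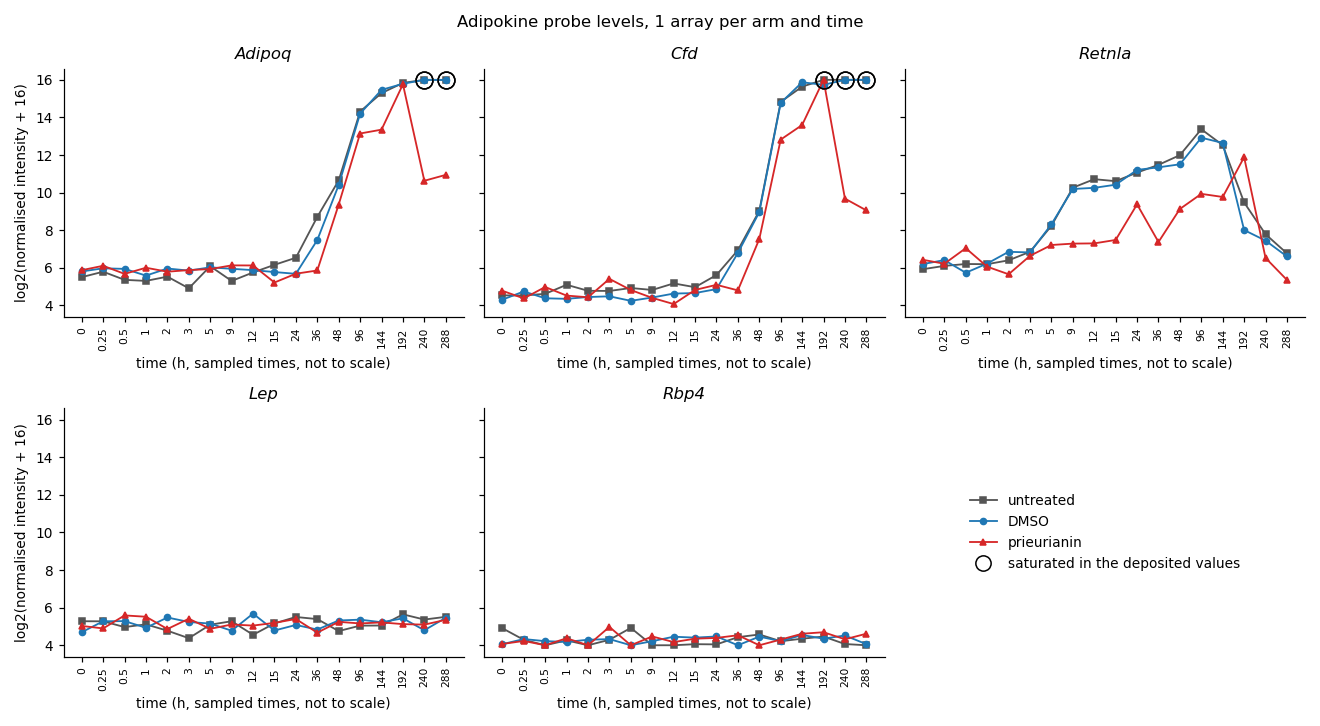
Level of each measured adipokine probe as log2(normalised intensity + 16) against sampled time in hours, with 1 point per array and lines joining the arrays of an arm; open circles mark values saturated in the deposited data. Adipoq and Cfd rise from 36 h in both controls and from 48 h with prieurianin, Retnla peaks at 96 h in the controls, and Lep and Rbp4 stay at the bottom of the scale in all arms.

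Adipsin RNA showed the same shape with a steeper late loss. The Cfd probe read 3 to 25 in DMSO cells from 0 to 24 h, 7 to 55 in untreated cells and 1 to 24 in prieurianin cells. From 36 to 288 h DMSO cells then read 95, 460, 26426, 54714, 47138, 65482 and 65488, the last 2 saturated. Untreated cells read 93, 505, 28755, 51592, 65487, 65487 and 65490 and were saturated from 192 h on. In prieurianin cells the values were 11, 125, 6161, 10651, 65489, 734 and 436. The 192 h value was the only saturated one of that arm. It equalled the saturated untreated value and lay above the unsaturated DMSO value of that time, while the arrays on either side of it lay far below both controls. At 96 h prieurianin cells held 25.8% of the DMSO level and at 144 h 20.7%. At 240 h and 288 h they lay at least 79.9-fold and at least 123-fold below the saturated DMSO probe.

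Over the whole course the genes called higher at 96 to 288 h than at 0 to 3 h made up 17% of tested genes in untreated cells, 16.5% in DMSO cells and 15.3% in prieurianin cells. All 3 tested adipokines rose in both control arms, and Adipoq and Cfd also rose with prieurianin. This count was partly set by the filter on dim genes. Mean Cfd levels up to 48 h (4.45 to 5.92 log2) lay below the filter of 6.071, so Cfd was tested only through its late levels. Lep and Rbp4, which stayed dim, were not tested. Adipoq rose by 10.09 ± 0.75 log2 units in untreated cells, 9.64 ± 0.75 in DMSO cells and 6.88 ± 0.75 in prieurianin cells (adjusted p = 1.1e-14, 6.2e-14 and 1.3e-09). Cfd rose by 10.97 ± 0.76, 11.23 ± 0.76 and 7.48 ± 0.76 log2 units (3.1e-15, 1.6e-15 and 2.7e-10). The control estimates include saturated values at 240 h and 288 h (for Cfd in untreated cells also at 192 h), which enter at the scanner's ceiling. The difference between the prieurianin and DMSO rises was -2.76 ± 1.06 for Adipoq (adjusted p = 0.35) and -3.74 ± 1.08 for Cfd (0.12), and neither passed the threshold, which 0.336% of tested genes did. Both passed it without the prieurianin 192 h array, at -3.51 for Adipoq (adjusted p = 0.034) and -4.69 for Cfd (0.0021), and in a fit that paired the arms by time as a block, at -2.75 (0.036) and -3.71 (0.015). Beside untreated cells, where 0.594% of genes were called, the differences were -3.21 (adjusted p = 0.16) and -3.49 (0.12).

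At matched late times the loss of both RNAs passed the test. Of 12792 genes, 16.7% were called in prieurianin minus DMSO at 96 to 288 h and 9.36% were called lower, and 2 of the 3 adipokines tested were among the latter. Adipoq was lower by 2.72 ± 0.51 log2 units, 6.6-fold (adjusted p = 0.000366, lower at 5 of 5 times on the normalised scale), and Cfd by 3.45 ± 0.60, 10.9-fold (0.00018, lower at 4 of 5 times). The spread between times was wide: the SD of the 5 differences was 2.39 for Adipoq and 3.08 for Cfd. The standard errors and p-values come from the variation pooled over windows and arms. They are smaller than this late spread alone would give. Against untreated cells, where 22% of genes were called and 10.5% were called lower, the values were nearly the same, at -2.72 ± 0.51 (0.000207) and -3.46 ± 0.60 (9.8e-05). Without the prieurianin 192 h array the differences from DMSO were -3.39 for Adipoq (2.0e-06) and -4.34 for Cfd (2.2e-07). Saturated values were also treated as missing, which for Adipoq removes both controls at 240 h and 288 h. Adipoq was then at -1.07 against DMSO (adjusted p = 0.063) and -1.06 against untreated cells (0.053) and lost its call. Cfd kept its call at -2.11 (0.00067) against DMSO, but for Cfd this setting also removes the prieurianin 192 h array. That Cfd value rests on 96 h and 144 h alone, while the Adipoq value still holds 192 h, so the 2 are not alike.

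Before 96 h the window test did not call either gene against DMSO. At 5 to 48 h 11.1% of genes were called in prieurianin minus DMSO, and Adipoq stood at -0.41 ± 0.43 (adjusted p = 0.61) and Cfd at -0.43 ± 0.51 (0.66). Against untreated cells they stood at -0.70 ± 0.43 (0.24) and -0.85 ± 0.51 (0.23), and both were called there when saturated values, all at later times, were treated as missing (0.043 and 0.0037). This window mixes 5 times at which the probes were dark in all arms with 36 h and 48 h. At these last times Adipoq was lower by 1.62 and 1.04 log2 units, and Cfd by 1.99 and 1.43. At 0.25 to 3 h no gene of the 12792 passed the threshold (300 had an unadjusted p under 0.05 by limma, and 0% were called), and the differences were 0.03 ± 0.51 for Adipoq, 0.26 ± 0.60 for Cfd and -0.09 ± 0.55 for Retnla.

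**Figure D2:**
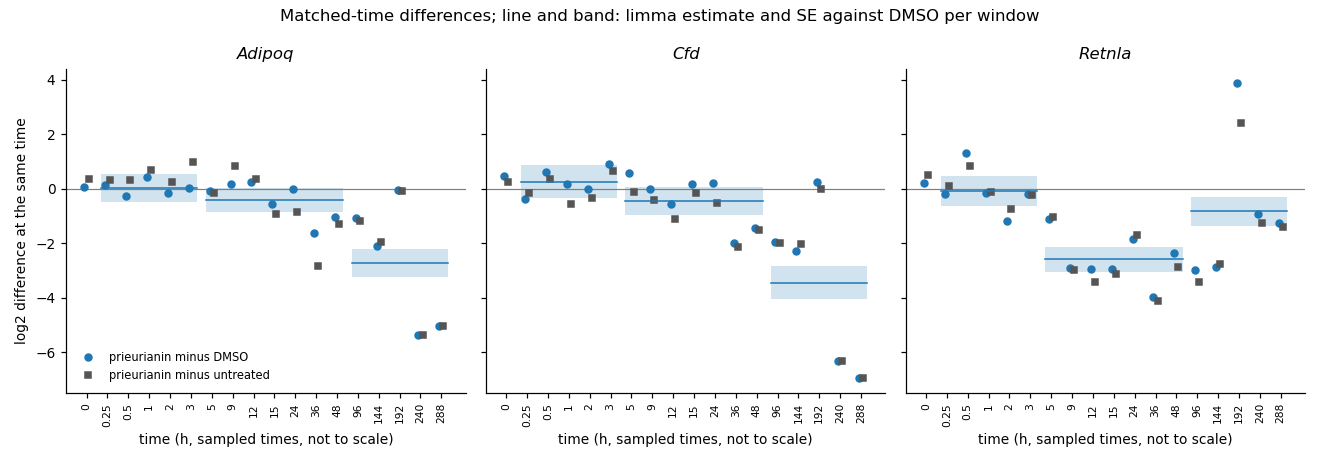
Log2 difference between the prieurianin array and the DMSO (circles) or untreated (squares) array of the same time for Adipoq, Cfd and Retnla; the line and band are the limma estimate and its standard error against DMSO in each window. Adipoq and Cfd separate at 36 h and reach below -5 at 240 h and 288 h, Retnla is lower at every time from 5 to 144 h, and all 3 come back to or above the controls at 192 h alone.

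Retnla behaved differently from the classical adipokines, in its normal course and in its response. In control cells its RNA rose early, within hours, and was transient. The DMSO probe read 31 to 97 at 0 to 3 h, then 265, 1210, 1203, 1448, 2190, 2489 and 2518 at 5, 9, 12, 15, 24, 36 and 48 h. It reached 6911 at 96 h and 5548 at 144 h and then dropped to 205, 169 and 73 at 192, 240 and 288 h. Untreated cells gave 242, 1251, 2007, 2037, 2071, 2574 and 4007 from 5 h to 48 h and 10353, 6090, 715, 188 and 82 from 96 h to 288 h. By the onset rule used for Adipoq, Retnla rose at 5 h in both controls, before either other gene. From 96 h to 288 h it fell by 79.8-fold in DMSO cells and by 97.3-fold in untreated cells, while Adipoq and Cfd were higher at 288 h than at 96 h in both arms. No Retnla value was saturated.

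Prieurianin cells largely lacked this early rise. Over the same 7 times the probe read 119, 131, 129, 200, 681, 139 and 426. From 9 h on, every one of these lay below every DMSO value of the same times, which began at 1203. Onset by the same rule came at 48 h. The prieurianin minus DMSO difference at 5 to 48 h was -2.58 ± 0.46, a fold of 5.99 (adjusted p = 0.00028, lower at 7 of 7 times, differences from -3.97 to -1.10). This made Retnla 1 of the 4.51% of genes called lower there, while Adipoq and Cfd were not among them. Against untreated cells, where 28.5% of genes were called and 15.5% were called lower, it was -2.74 ± 0.46 (3.5e-05, 7 of 7 times). In a fit that did not match the arms by time, the DMSO comparison kept its size but not its call (adjusted p = 0.10).

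At late times the Retnla difference depended on 1 array. From 96 to 288 h prieurianin cells read 803, 685, 3539, 68 and 19. The 192 h value was the highest of that arm and stood 14.7-fold above the DMSO value of 205, while at the other 4 times prieurianin was lower, by 2.99, 2.87, 0.92 and 1.25 log2 units. Over 96 to 288 h the difference was -0.83 ± 0.55 against DMSO (adjusted p = 0.32) and -1.29 ± 0.55 against untreated cells (0.089). Without the prieurianin 192 h array it was -1.88 (0.00024) and -2.34 (1.1e-05). The rise from 0 to 3 h was 3.71 ± 0.96 in untreated cells (adjusted p = 0.0019), 3.15 ± 0.96 in DMSO cells (0.0087, and 0.06 without 144 h) and 2.35 ± 0.96 in prieurianin cells (0.057). Averages over this window cover both the peak and the fall of Retnla. The rises did not differ between prieurianin and DMSO past the threshold (-0.80 ± 1.36, adjusted p = 0.90).

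The prieurianin 192 h array was high in all 3 genes at once. Its adipocyte marker sum (10 genes, normalised intensity) was 199907, against 56377 to 92144 on the other 4 late prieurianin arrays, 123110 to 192589 on late DMSO arrays and 135060 to 176492 on late untreated arrays. Its mean log2 level of 5 smooth muscle markers was 10.15, inside the 9.87 to 10.16 of the late prieurianin arm and above the 8.30 to 9.27 of late DMSO arrays and the 8.69 to 9.36 of late untreated arrays. The array thus combined fat cell marker RNA above that of the late controls with smooth muscle marker RNA at the level of its own arm. What set it apart was not tested.

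**Figure D3:**
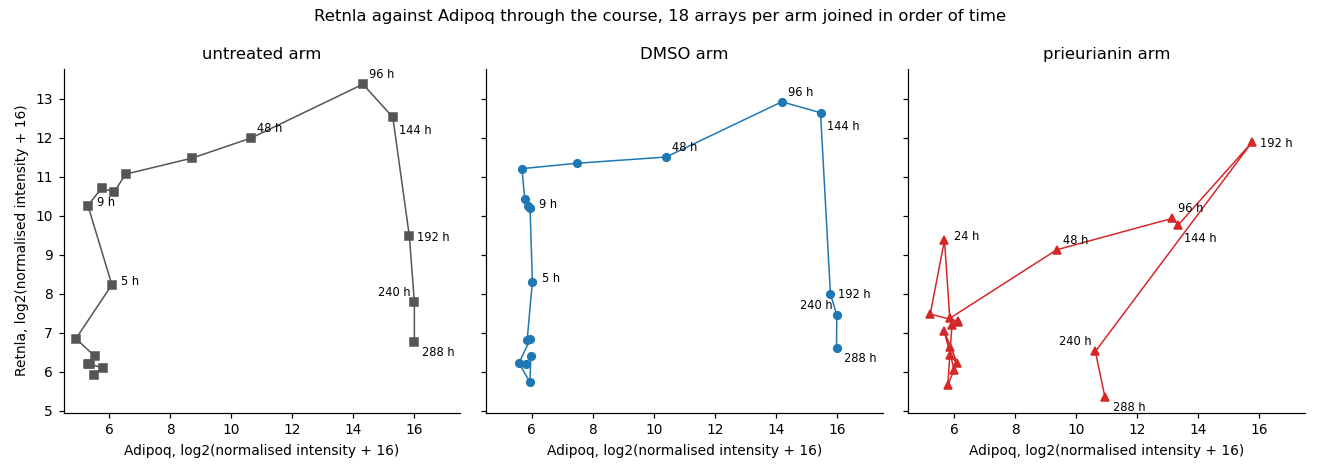
Retnla level against Adipoq level, both as log2(normalised intensity + 16), with the 18 arrays of each arm joined in order of time and chosen times labelled. In both controls Retnla rises before Adipoq and falls after 96 h while Adipoq goes on rising to its ceiling at 240 h. With prieurianin Retnla stays below both controls from 5 h on, except at 192 h, while Adipoq still rises. At 240 h and 288 h Retnla with prieurianin is near or below its start. Adipoq, at 10.63 and 10.94, remains above its start of 5.87.

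In DMSO minus untreated the fit of all arms called none of the 3 genes. Of all genes, 3.54%, 20.3% and 3.65% of genes were called in the 3 windows. At 5 to 48 h the differences were -0.29 ± 0.43 for Adipoq (adjusted p = 0.68), -0.41 ± 0.51 for Cfd (0.61) and -0.16 ± 0.46 for Retnla (0.84). Cfd was lower in DMSO cells at 7 of 7 of these times, and it was called (-0.41, adjusted p = 0.0058) when only those arms were fitted. In prieurianin minus untreated at 0.25 to 3 h, 5.93% of genes were called and again none of the 3 genes was. For Adipoq the widest gap between the controls was at 36 h, where DMSO was lower by 1.23 log2 units. For Retnla it was at 192 h, during its fall, where DMSO was lower by 1.47. The course difference between DMSO and untreated cells gave no call for any gene (0% of 12792, with 272 at an unadjusted p under 0.05 by limma). For the courses themselves 34.3%, 32.6% and 30.4% of genes were called in untreated, DMSO and prieurianin cells.

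Leptin and Rbp4 RNA were not seen to rise in any arm. The Lep probe read 3 to 56 in untreated cells (median 18), 10 to 40 in DMSO cells (median 19) and 9 to 40 in prieurianin cells (median 16). At 96 to 288 h, when Adipoq and Cfd were at their highest, it read 13 to 37 in untreated, 13 to 25 in DMSO and 14 to 20 in prieurianin cells, and the arms overlapped. The Rbp4 probe read -3 to 16 in untreated, -1 to 10 in DMSO and -3 to 17 in prieurianin cells. With the filter left out, prieurianin minus DMSO at 96 to 288 h was -0.07 ± 0.19 for Lep (adjusted p = 0.89) and 0.17 ± 0.16 for Rbp4 (0.57). A rise as large as that of Cfd, whose probe was as dim at first, could have been seen by a probe that reads well, but a small change or a fall could not have been detected at this signal. A probe that reads poorly cannot be told apart from a gene with little RNA.

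Among the other resistin-like genes, Retnlg (resistin-like gamma) was measured but dim, with no deposited value above 443, and stood at -0.51 ± 0.30 at 5 to 48 h (adjusted p = 0.31) and -0.39 ± 0.36 at 96 to 288 h (0.51). Retnlb (resistin-like beta) never read above 28 and was not tested. Retnla was therefore the only gene of its family with a called difference between prieurianin and DMSO, among the 2 that were tested.

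The fat cell markers moved with Adipoq and Cfd. Of 10 markers 9 were lower at 96 to 288 h against DMSO and 1 of 10 at 5 to 48 h, with medians of -1.20 and -0.17 beside 0.02 and -0.01 over all genes. Over all genes 9.36% and 4.51% were called lower in these windows. Cidec, a lipid droplet protein, was at -2.88 ± 0.59 (adjusted p = 0.0011), Plin1, the droplet coat protein perilipin, at -2.03 ± 0.52 (0.0069) and Pparg, the master regulator of fat cell formation, at -1.16 ± 0.21 (0.00023). In RNA from whole cultures, fewer fat cells and less adipokine RNA per fat cell cannot be told apart. Of the 9 late calls 5 were lost when 1 time was left out, among them Plin1 (0.059 without 240 h and 0.08 without 288 h). Pparg was also the marker called at 5 to 48 h, at -0.58 ± 0.18 (0.028, and 0.13 without 12 h). In the same late window the smooth muscle markers Acta2 and Tagln were higher by 2.69 ± 0.39 and 3.42 ± 0.23 log2 units, 2 of the 5 tested. Of all genes, 16.7% were called there in either direction.

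Because Retnla is also a macrophage gene, macrophage markers were read beside it. Of 10 markers 6 were bright enough to test. Against DMSO 1 was lower at 5 to 48 h (Lyz2, -0.38 ± 0.12, adjusted p = 0.041, and 0.15 without 12 h) and none at 96 to 288 h. Over all genes 4.51% and 9.36% were called lower in these windows. Against untreated cells at 5 to 48 h Lyz2 was lower by 0.71 ± 0.12 (adjusted p = 4.9e-05), and the other markers were not called. Their summed level at 5 to 48 h ran from 3842 to 6506 in untreated, 3040 to 5738 in DMSO and 3047 to 4724 in prieurianin arrays, so the arms overlapped. The defining leukocyte marker Ptprc (CD45) never read above 29, and Chil3, which accompanies Retnla in alternatively activated macrophages, never above 13, in any arm and at any time. Cd14, the brightest of the list at up to 7855, was at -0.12 ± 0.25 (0.82) against DMSO at 5 to 48 h. At 96 to 288 h it was at -0.81 ± 0.30 (0.059).

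Other genes with courses like these were sought over all 54 arrays. Adipoq was most like Cfd (Pearson r = 0.99), then Cidec (0.98) and Mc2r, the ACTH receptor (0.98), and Cfd was most like Adipoq, Mc2r (0.99) and Cidec (0.98). The same genes led both lists without the prieurianin 192 h array. For these pairs rank correlations were lower, at 0.69 between Adipoq and Cfd and 0.83 between Cfd and Cidec. By rank correlation Cfd came only 358th among the genes most like Adipoq, and Adipoq 388th among those most like Cfd. Cidec and Mc2r came 215th and 156th for Adipoq and 8th and 45th for Cfd. Most arrays hold near-dark values of Adipoq and Cfd, and whether this lowers their rank correlation was not tested. The genes most like Retnla were Dclre1b, a DNA repair nuclease (0.89), Pop5, a subunit of the RNA-processing enzyme RNase P (0.88), and Bcl11b, a transcription factor (0.86), which came to rank 4 without that array. Retnla correlated with Adipoq at 0.38 and with Cfd at 0.40. These correlations are descriptions over arrays that share arms and neighbouring times.

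The receptors and carriers of the adipokines differed by less than 1 log2 unit between prieurianin and DMSO. Of 10 receptors and carriers 7 could be tested, and against DMSO at 96 to 288 h 1 was lower and 2 were higher, with a median of 0.23 beside 0.02 over all genes. Of all genes, 16.7% were called there and 9.36% were called lower. Adipor2, which rose by 2.40 ± 0.20 log2 units over the DMSO course and by 1.72 ± 0.20 with prieurianin, was at -0.68 ± 0.18 (adjusted p = 0.01). Without 240 h or 288 h that call was lost (0.091 and 0.13), and likewise with median centring (0.092). Adipor1, the other adiponectin receptor, was at 0.21 ± 0.10 (0.15). Cdh13 stood at 0.28 ± 0.13 (0.14), and Lepr, the leptin receptor, at 0.23 ± 0.14 (0.27). Cap1, an actin-binding protein described as a resistin receptor, was higher at 5 to 48 h (0.65 ± 0.11, adjusted p = 0.00025) and at 96 to 288 h (0.77 ± 0.13, 0.00018). Appl1, an adaptor of the adiponectin receptors, was called higher in both windows by its brightest probe (0.24 ± 0.08 and 0.31 ± 0.09, adjusted p = 0.036 and 0.018). Its other probes were at -0.28 and 0.03 in the late window (0.30 and 0.84), and the late call was also lost without 96, 240 or 288 h (0.052, 0.064 and 0.15). The Appl1 call at 5 to 48 h was lost with any of 5 single times left out (up to 0.099). Against untreated cells its brightest probe was at 0.03 ± 0.08 (0.84) and 0.35 ± 0.09 (0.0054) in these windows.

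**Figure D4:**
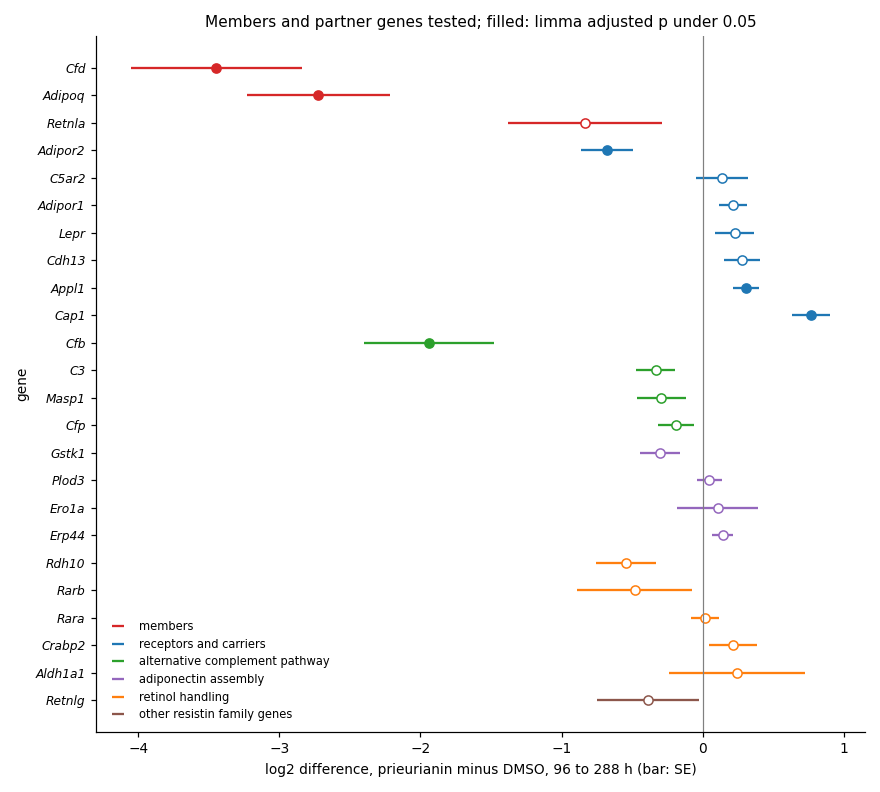
Log2 difference between prieurianin and DMSO at 96 to 288 h with its standard error, for the adipokines tested and for genes of their receptors, complement partners, assembly and retinol handling; filled points passed an adjusted p of 0.05. Cfd, Adipoq and Cfb lie farthest to the left, and most partner genes lie within 1 log2 unit of 0.

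The RNA of factor B, the substrate of adipsin, was lower at late times, but largely through 192 h. Of 4 alternative complement genes tested, none was called at 5 to 48 h, where C3 was at -0.18 ± 0.12 (adjusted p = 0.36) and Cfp, properdin, at 0.19 ± 0.11 (0.29). At 96 to 288 h, where 9.36% of all genes were called lower, 1 was lower: Cfb, at -1.94 ± 0.46 (0.0039). Without the 192 h arrays Cfb was at -0.82 (0.022). At 192 h itself Cfd and Adipoq were not lost, at 0.27 and -0.03 against DMSO, so the late Cfb difference did not follow theirs there. C3 itself was at -0.33 ± 0.14 (0.093). Its probe reached the scanner's ceiling, with a highest deposited value of 65490, so its differences may be understated. Of the 4 genes that help adiponectin fold and assemble, Ero1a alone was called against DMSO at 5 to 48 h. Of all genes, 11.1% were called there. Ero1a, an oxidase that forms disulfide bonds in the endoplasmic reticulum, was higher (1.05 ± 0.24, adjusted p = 0.0042). None of the 4 was called against DMSO at 96 to 288 h. There Gstk1 (DsbA-L) was at -0.30 ± 0.14 (0.14) and Erp44, which holds adiponectin back in the secretory pathway, at 0.14 ± 0.07 (0.20). Over the DMSO course Ero1a rose by 1.93 ± 0.27 and with prieurianin by 1.90 ± 0.27. Against untreated cells at 5 to 48 h 28.5% of genes were called. Ero1a (1.37 ± 0.24, adjusted p = 6.6e-05 by limma), Erp44 (0.28 ± 0.06, 0.0011) and Plod3 (0.26 ± 0.08, 0.0083) were called higher there. At 96 to 288 h, where 22% of genes were called, Erp44 alone was called, at 0.44 ± 0.07 (6.3e-05). DMSO cells also held more Erp44 RNA than untreated cells then (0.30 ± 0.07, 0.017).

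Of 9 genes for retinol handling with a probe, 5 were tested. Against DMSO at 5 to 48 h, 4.51% of all genes were called lower. Rdh10, which oxidises retinol, was lower at 5 to 48 h (-0.71 ± 0.18, adjusted p = 0.0084, and 0.064 without 15 h), and none was called later, when Rdh10 was at -0.54 ± 0.21 (0.074) and Crabp2, a retinoic acid binding protein, at 0.21 ± 0.17 (0.44). Stra6, the cell surface receptor of Rbp4, never read above 106 and was not tested.

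Among other secreted products of fat cells, calls against DMSO went in both directions at 5 to 48 h. At 96 to 288 h they went in 1 direction, lower, and most genes were not called in either window. Some of these probes read at or near the scanner's ceiling, with median normalised levels of 65488 (Saa3), 65431 (Lcn2) and 62556 (Fstl1). Hp, Rarres2 and Ccl2 reached 65488 at their highest. Differences of such probes could be hidden, so an absent call there does not show equal levels. Of 38 genes listed 35 had a probe and 30 were tested, and against DMSO at 5 to 48 h 3 were lower and 3 higher, with a median of -0.03. Of all genes, 11.1% were called there and 4.51% were called lower. Adm, adrenomedullin, a vasodilator peptide, was higher by 2.84 ± 0.53 log2 units (adjusted p = 0.00051). Orm1, an acute-phase plasma protein, was lower by 0.79 ± 0.17 (0.0021). The other 4 calls were lost when single times were left out: Agt, angiotensinogen (-1.27 ± 0.41, adjusted p = 0.042, up to 0.18 without 1 time), Angptl4, an inhibitor of lipoprotein lipase (-0.84 ± 0.23, 0.016, up to 0.10), Nampt, visfatin (0.45 ± 0.14, 0.033, up to 0.18) and Vegfa, the vascular growth factor (0.44 ± 0.14, 0.034, up to 0.19).

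At 96 to 288 h 6 of the 30 were lower and none higher, with a median of -0.33 beside 0.02 over all genes. Of all genes, 16.7% were called there and 9.36% were called lower. Enpp2, autotaxin, was lower by 1.91 ± 0.31 (adjusted p = 7.5e-05), Ccdc80, a matrix protein released by fat cells, by 1.56 ± 0.22 (1.4e-05) and Orm1 by 1.07 ± 0.20 (0.00039). Agt was at -2.15 ± 0.49 (0.0027, and 0.056 without 288 h) and Vegfa at -0.63 ± 0.16 (0.0078, and 0.091 without 288 h). C1qtnf12, a relative of adiponectin, was at -0.32 ± 0.10 (0.024), and its call was lost without 144, 240 or 288 h (0.20, 0.10 and 0.10). In a fit that did not match the arms by time, the late calls of Cidec (0.062), Cfb (0.13), Agt (0.13), Orm1 (0.20), Vegfa (0.12) and Adipor2 (0.053) and the earlier calls of Orm1 (0.35) and Rdh10 (0.12) were lost, while those of Adm, Cap1, Ero1a, Enpp2 and Ccdc80 were kept.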

How the data were processed

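RNA of 54 samples of 3T3-L1 cells was read on single-colour (Cy5) Mouse OneArray arrays, 1 per arm and time. The deposited values are linear intensities per probe, judged from their range (-83 to 65497); scaling and background correction by the authors are not given in the sources used here. Arrays were quantile normalised over 29922 probes, values below 0 set to 0, and converted to log2(value + 16). The probe with the highest mean stood for a gene, and 12792 genes with a mean log2 level above 6.071 were tested. Symbols came from the platform annotation, updated through RefSeq names (17558 current, 3415 updated, 47 kept).

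Arms were compared with limma 3.58.1 in R 4.3.3, with time as a factor and 1 arm effect per window (28 residual degrees of freedom). Courses came from a fit of window means per arm over all 54 arrays (45 degrees of freedom). P-values were adjusted by the Benjamini-Hochberg method over all genes tested. Time pairs the arms as a block by design, since the labels give every arm the same times. Alternatives were another scaling, pseudocount, filter, probe rule, treatment of saturated values and of time, and leaving out each time.

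The members and gene lists were chosen with earlier results of these data known. Named are all members, genes called in a partner list (up to 6 per window, largest first), or its 2 smallest p where none was called, and the 3 genes most like each member. Other receptors, Cd14, Acta2, Tagln, Plod3 and secreted products near the scanner's ceiling were named after their values were seen.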

Additional observations from a re-analysis of the deposited data

Results flagged for a closer look

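In groups of 5 to 7 arrays, 6 of 45 had a highest or lowest array far from the others by Dixon's criterion. Chance alone gives this in about 1 of 20 groups. The arrays of such a group are successive times of 1 arm, not replicates. Among the 5 to 48 h arrays the Adipoq level at 48 h was 10.40 in DMSO cells (median 5.95) and 9.36 in prieurianin cells (median 5.93), both log2. Cfd stood at 7.53 at 48 h in prieurianin cells (median 4.82). At the other end, Cfd in DMSO cells was lowest at 96 h among late arrays, at 14.77 (median 15.87), and Retnla in DMSO cells was lowest at 5 h among the 5 to 48 h arrays, at 8.31 (median 10.42). The dim Rbp4 probe read 4.91 at 0 h in untreated cells against a median of 4.28 over 0 to 3 h.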

How the results depend on the processing

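Of the 3 tested members, 1 was called in prieurianin minus DMSO at 5 to 48 h and 0 with no replicate block (time left out of the pairing of arms). At 96 to 288 h 2 were called against each control, and 1 with the filter at the median or with saturated values missing. Against untreated cells at 5 to 48 h 1 was called, and 3 with saturated values missing. In DMSO minus untreated at 5 to 48 h none was called, and 1 (Cfd, -0.41, adjusted p = 0.0058) when only those arms entered the limma fit. Course differences between prieurianin and DMSO gave 0 calls, and 2 with the replicate block or without the prieurianin 192 h array, a setting chosen after seeing the data. Those against untreated cells gave 0, 2 in both settings and 1 with a pseudocount of 64. With 1 time left out the counts ran from 0 to 1 and from 0 to 2, above 0 without 48 h or 192 h. Small early differences changed sign: Adipoq from 0.03 to -0.069 without 1 h (range over single times -0.069 to 0.10) and Retnla from -0.09 to 0.19 without 2 h (range -0.43 to 0.19). Over single times left out, prieurianin minus DMSO ran from -3.40 to -2.06 for Adipoq and from -4.37 to -2.57 for Cfd at 96 to 288 h, and from -2.83 to -2.35 for Retnla at 5 to 48 h. The ceiling of the scanner limits late control values of Adipoq and Cfd, and some partner probes such as C3, Saa3 and Lcn2. Signal near background limits Lep, Rbp4 and all early values.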
